A study of Homo sapiens with 84 samples.

Results

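The 10 keratins described here are KRT6A, KRT6B, KRT16, and KRT17 of the stress class, KRT5, KRT14, and KRT15 of the basal class, and KRT8, KRT18, and KRT19 of the simple class. They were taken by gene symbol from the 58395 genes counted in every library, which include 55 protein-coding keratin genes. Transcriptomes of Kyse30, a line from an esophageal squamous cell carcinoma, and FaDu, a line from a pharyngeal one, were measured by sequencing the 3′ ends of polyadenylated RNA. Cells were serum-starved and then left untreated for 0, 6, or 72 h, or were treated without serum for 6 or 72 h with EGF at 1.8 nM (EGFlow) or 9 nM (EGFhigh), with EpEX-Fc, with EGFhigh and EpEX-Fc together (EGFhigh+EpEX), or with Fc. EpEX-Fc is the ectodomain of EpCAM fused to an immunoglobulin Fc region (here EpEX), and Fc alone is its control. Untreated cells are the control for EGF. Each line is a single tumor-derived culture, and the labels name no sort and no altered gene in it. The study reports that EGFR, the receptor of EGF, is amplified in Kyse30 but not in FaDu, with higher EGFR expression in Kyse30. The labels do not say whether libraries of a group came from separate cultures. The study speaks of independent experiments for its pictures of the treated cells but does not tie single libraries to them, so p-values measure only the spread between these libraries, which may be technical in part.

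Kyse30 was covered by 43 libraries with 3 or 4 in each of the 13 conditions, and FaDu by the 20 libraries numbered 3 and 4, with 2 in 7 conditions and 1 in the other 6. Total counts on genes ranged from 1944948 to 11759799 (median 6304338) in Kyse30 and from 6217938 to 12442349 (median 9259762) in these FaDu libraries. Levels are in CPM, the counts on a gene scaled by a library's total counts on genes. As each transcript gives reads at its 3′ end only, CPM was not divided by gene length. A gene without a count could have had up to 1.54 CPM in the shallowest Kyse30 library and up to 0.482 CPM in the shallowest FaDu library, which is the level of 3 counts and covers counting error only. In bulk RNA, fewer cells with a transcript and less of it per cell cannot be told apart.

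Keratins form the intermediate filaments of epithelial cells, and each filament pairs a type II with a type I protein. KRT8 with KRT18 or KRT19 is the pair of simple, single-layered epithelia. KRT5 with KRT14 or KRT15 is the pair of the proliferating basal layer of stratified epithelia. KRT6A and KRT6B with KRT16 and KRT17 are induced in keratinocytes at wound edges and in hyperproliferative squamous epithelium. In this list, 4 genes are of type II (KRT6A, KRT6B, KRT5, KRT8) and 6 of type I (KRT16, KRT17, KRT14, KRT15, KRT18, KRT19). All of the type II genes lie on chromosome 12 and the type I genes on chromosome 17, except for the type I gene KRT18, which lies on chromosome 12 beside KRT8.

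Several of the 10 genes have near-identical relatives, so reads that align to more than 1 copy may be missing from the counts. KRT6A (ENSG00000205420, chr12:52487174-52493257, minus strand, GRCh38 with GENCODE 29) and KRT6B (ENSG00000185479, chr12:52446651-52452126, minus strand) share 97.5% of their coding bases. Their last 500 transcript bases, where 3′ reads fall, share 64.4%. The last 60 coding bases, all in exon 9 of 9, show how alike the ends of the coding sequences are, with KRT6C, the third KRT6 gene, for comparison. Capitals mark the positions at which a sequence differs from KRT6A, and in KRT6A those at which KRT6B differs from it.
KRT6A (chr12:52487720-52487779): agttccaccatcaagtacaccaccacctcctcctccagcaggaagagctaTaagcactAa
KRT6B (chr12:52447190-52447249): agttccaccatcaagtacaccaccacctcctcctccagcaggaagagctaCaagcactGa
KRT6C (chr12:52469062-52469121): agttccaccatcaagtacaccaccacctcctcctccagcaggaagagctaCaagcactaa
KRT6B differs from KRT6A at 2 of these 60 bases and KRT6C at 1. No stretch of 50 bases within the last 500 of KRT6A, KRT6B, KRT5, or KRT15 recurred in an annotated transcript of another gene.

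Of the type I stress genes, KRT16 (ENSG00000186832, chr17:41609778-41615899, minus strand) and KRT17 (ENSG00000128422, chr17:41619441-41624842, minus strand) also share sequence near their 3′ ends. Their longest common coding run has 61 bases, ends 311 bases before the 3′ end of KRT16 and 283 before that of KRT17, and is printed because a read inside it could come from either gene.
KRT16 (chr17:41610343-41610403) and KRT17 (chr17:41620671-41620731): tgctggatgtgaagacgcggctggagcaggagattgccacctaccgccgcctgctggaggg
Of the 451 overlapping windows of 50 bases in the last 500 of a transcript, 15.7% recurred whole in transcripts of other genes for KRT16, 17.7% for KRT14, 4.21% for KRT17, 37.7% for KRT8, 36.4% for KRT18, and 1.33% for KRT19. These are shares of windows, and the share of bases that lie in some recurring window is larger. The gene sharing most of them was a keratin pseudogene in each case, apart from KRT17, where it was KRT16. Counts on the annotated pseudogenes of KRT16 came to 2.65% of its own counts in Kyse30 and to 12.9% in FaDu, and those of KRT18 to 0.852% and 1.23%. KRT8 (ENSG00000170421, chr12:52897187-52949954, minus strand) and KRT18 (ENSG00000111057, chr12:52948871-52952901, plus strand) overlap by 1084 bases at their 5′ ends, away from the 3′ ends that were sequenced.

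The labels of both lines were set against cell type markers. In Kyse30, 4 of 5 squamous markers (TP63, DSG3, SOX2, PERP) had a mean of at least 5 CPM, while KRT5 itself had a mean of 2.19 CPM. In FaDu libraries 3 and 4, all 5 did. The 5 epithelial markers (CDH1, EPCAM, CDH3, KRT8, KRT18) passed this level in both. Of 8 fibroblast markers, 2 passed it in Kyse30 and 1 in FaDu. COL1A1 was the most abundant with a mean of 15.1 CPM in Kyse30 and 9.06 CPM in FaDu, DCN and LUM were at 0 in 29 and 38 of 43 Kyse30 libraries and in 19 of 20 FaDu libraries each, and the summed level of the list was 10.6 to 47.9 CPM and 7.07 to 15.8 CPM. No endothelial, blood cell, or melanocyte marker reached a mean of 5 CPM. The other 21 libraries labelled FaDu, those numbered 1 and 2, stood apart: their KRT6A level ran from 7.04 to 3641 CPM and their summed fibroblast level reached 5503 CPM. They are left out of the values below and are described at the end.

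Among the 10 keratins, Kyse30 cells carried a simple profile. Outside the 10, KRT13 and KRT80 had medians of 351 and 211 CPM in these libraries, so the profile is not one of all keratins. KRT19 (ENSG00000171345, chr17:41523617-41528308, minus strand), the small type I keratin of simple and glandular epithelia, ranged from 1743 to 6791 CPM with a median of 3278 over the 43 libraries. KRT18 ranged from 1261 to 7216 CPM with a median of 2808, and its type II partner KRT8 from 762 to 5107 with a median of 1668. KRT19 exceeded KRT18 in 23 of 43 libraries, so their order was not settled, while KRT18 exceeded KRT8 in all 43. The simple class made up 93.8% to 99.1% (median 98.3%) of the counts on the 10 keratins.

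The remaining 7 genes lay below this group without overlap in Kyse30. KRT15 (ENSG00000171346, chr17:41513743-41522529, minus strand), a type I keratin of the basal layer, came next with 26.7, 53.1, and 152 CPM (lowest, median, highest). KRT6A followed with 5.19, 30.5, and 314 CPM, KRT16 with 1.79, 16.5, and 367 CPM, and KRT17 with 1.21, 11.9, and 102 CPM. These 4 neighbours overlapped in range, and KRT15 exceeded KRT6A in 26 of 43 libraries, KRT6A exceeded KRT16 in 34, and KRT16 exceeded KRT17 in 32. The classical basal pair was near the floor: KRT5 (ENSG00000186081, chr12:52514575-52520687, minus strand) had 0.634, 2.07, and 8.64 CPM, and KRT14 (ENSG00000186847, chr17:41582279-41586921, minus strand) had 0, 0.666, and 32.6 CPM. KRT6B had no count in 22 of 43 libraries and at most 4.32 CPM.

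FaDu cells carried a mixed profile, in which the stress keratin KRT17 and the basal keratin KRT5 stood with the 3 simple keratins above the other 5 genes by median level. KRT18 ranged from 677 to 1644 CPM with a median of 1004, and KRT17 from 433 to 3833 CPM with a median of 948. KRT17 exceeded KRT18 in 12 of 20 libraries, so this order also depended on the library. KRT8 (294, 496, and 744 CPM), KRT19 (189, 320, and 722 CPM), and KRT5 (42.3, 208, and 639 CPM) followed with overlapping ranges. KRT16 (18.0, 64.0, and 134 CPM) and KRT15 (29.5, 60.2, and 260 CPM) were alike, with KRT16 above KRT15 in 9 of 20 libraries, and KRT6A (16.9, 24.7, and 74.0 CPM), KRT14 (7.26, 11.5, and 73.3 CPM), and KRT6B (6.37, 11.2, and 25.7 CPM) were the lowest. The stress class made up 19.2% to 65.1% of the counts on the 10 keratins.

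The lines were compared directly in untreated cells at 6 h, in a fit of all 43 Kyse30 and 20 FaDu libraries. A gene was called differential (DEG) if edgeR's quasi-likelihood test gave it an adjusted p-value no higher than 0.05, with Benjamini-Hochberg adjustment over all genes tested, and its log2FC exceeded 0.5 in either direction. KRT17 had 6.20, 3.48, and 4.49 CPM in the Kyse30 libraries and 614 and 909 CPM in FaDu, with a log2FC of -7.37 ± 0.57 (SE; adjusted p = 3.3e-15). KRT5 had 8.64, 0.812, and 2.31 CPM in Kyse30 and 211 and 205 CPM in FaDu, with a log2FC of -5.88 ± 0.44 (adjusted p = 1.6e-15). Every FaDu library lay above every Kyse30 library for both genes, KRT17 and KRT5.

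In this comparison, 8 of 10 keratins were DEGs beside 22.4% of 19634 genes tested, 5 lower in Kyse30 (10.4% of genes) and 3 higher (12%). In 9 of 10, the libraries of the lines did not overlap, as in 46.6% of all genes. Lower in Kyse30 were also KRT6B (log2FC -4.14, adjusted p = 0.0061), KRT16 (-3.50, 9.4e-07), and KRT14 (-3.14, 0.011). All 3 simple keratins were higher in Kyse30, KRT19 with a log2FC of 3.26 ± 0.33 (adjusted p = 2.2e-11), KRT8 with 2.17 ± 0.33 (7.7e-07), and KRT18 with 2.01 ± 0.30 (4.3e-07). KRT6A (log2FC -0.81, adjusted p = 0.42) and KRT15 (-0.25, 0.70) did not pass, although the 3 Kyse30 values of KRT6A (18.2, 11.5, and 18.1 CPM) lay below both FaDu values (29.9 and 25.1 CPM).

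**Figure D1:**
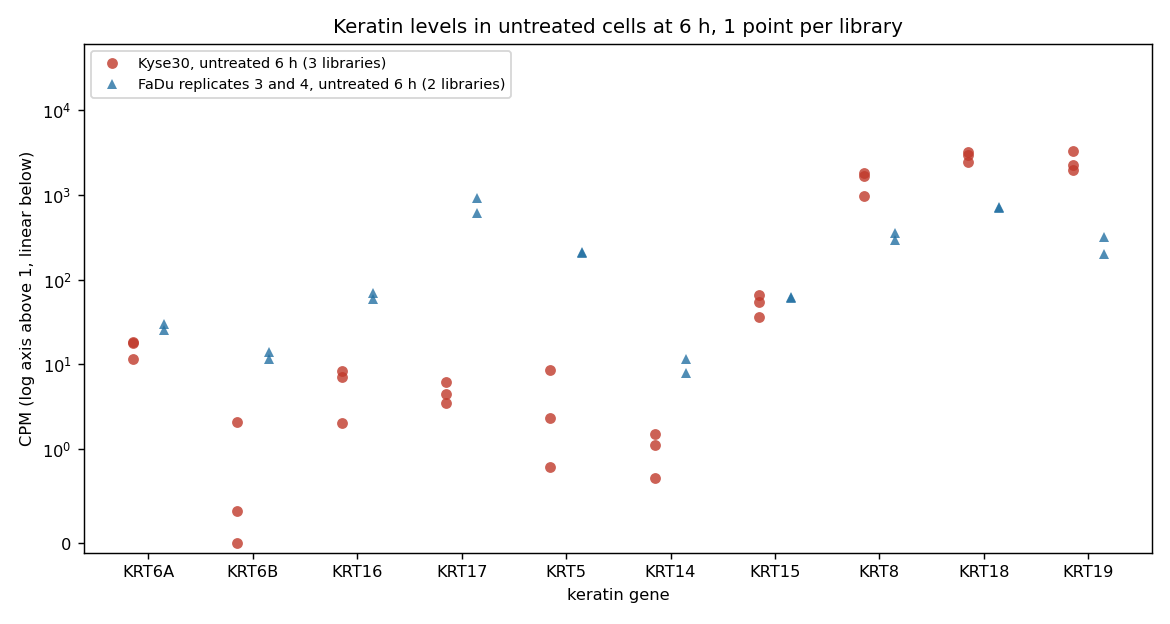
Levels of the 10 keratins in untreated cells at 6 h, with 1 point per library and CPM on an axis that is logarithmic above 1 and linear below. Kyse30 libraries (circles, n = 3) lie below FaDu libraries (triangles, n = 2) for the stress genes, KRT5, and KRT14, above them for KRT8, KRT18, and KRT19, and overlap them for KRT15.

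EGFhigh for 72 h raised 6 of 10 keratins in Kyse30, and none of the 10 fell. This contrast asks what sustained high-dose EGF changed against untreated cells of the same time. DEGs made up 6.2% of 15350 genes tested, with 3.04% higher and 3.16% lower. KRT6A had 8.68, 8.69, and 14.9 CPM in the untreated libraries 1, 2, and 3 and 312, 108, and 314 CPM in the EGFhigh libraries 1, 3, and 4. The lowest treated library was far above the highest untreated one, and the fitted difference was 25.3-fold (log2FC 4.66 ± 0.73, adjusted p = 4.2e-05). KRT16, a type I partner of KRT6A, had 27.3, 8.49, and 12.7 CPM untreated and 367, 167, and 201 CPM under EGFhigh, a 16.5-fold difference without overlap (log2FC 4.05 ± 0.56, adjusted p = 6.1e-06).

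KRT17, the third stress keratin called, had 15.4, 4.76, and 17.8 CPM untreated and 40.5, 20.9, and 102 CPM under EGFhigh. The groups did not overlap, but the second treated value was close to the third untreated one, and the log2FC was 2.22 ± 0.54 (adjusted p = 0.0078). Its call was lost without EGFhigh library 4 (log2FC 1.42, adjusted p = 0.14) and without untreated library 2 (1.83, 0.081). Of 9 recomputations under other settings, 8 kept the call, with log2FC 1.90 to 2.25 and adjusted p up to 0.063. KRT6B had no count in any untreated library and 41, 19, and 3 counts under EGFhigh, or 4.32, 3.17, and 0.402 CPM. With counts pooled over libraries, KRT6B under EGFhigh was 18.6 times the level that 3 counts over the untreated group would give. This bound covers counting error in the untreated group only, and not the spread between libraries. KRT6B did not pass the test (adjusted p = 0.075). The median log2FC of the 4 stress genes was 4.35, or 4.13 with KRT6B at this bound, beside -0.03 over all genes tested.

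The simple keratins rose together, by less. KRT8 had 1454, 962, and 1040 CPM untreated and 5107, 2208, and 1758 CPM under EGFhigh (log2FC 1.55 ± 0.29, adjusted p = 0.00042). KRT18 had 2072, 1734, and 1671 CPM untreated and 7216, 4203, and 2673 CPM under EGFhigh (log2FC 1.52 ± 0.26, adjusted p = 0.00017). EGFhigh library 1 was the highest for this pair, and without it the log2FC was 0.92 for KRT8 (adjusted p = 0.036) and 1.05 for KRT18 (0.0095). KRT19 was the most even, with 3295, 2786, and 3327 CPM untreated and 6314, 6051, and 6791 CPM under EGFhigh (log2FC 1.17 ± 0.25, adjusted p = 0.0026).

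None of the basal keratins passed the test at 72 h of EGFhigh. KRT5, the type II keratin of basal cells, had 1.81, 2.07, and 2.38 CPM untreated and 1.37, 2.17, and 2.95 CPM under EGFhigh (log2FC 0.19 ± 0.71). KRT14, its type I partner, had 2.20, 0.207, and 1.19 CPM untreated and 1.58, 2.50, and 32.6 CPM under EGFhigh, with a log2FC of 3.40 (adjusted p = 0.085). A single library set that value, as the log2FC was 0.87 without EGFhigh library 4. KRT15 overlapped between groups, with a log2FC of 0.76 ± 0.37 (adjusted p = 0.24).

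In counts, 7 of 10 keratins did not overlap between EGFhigh and untreated libraries at 72 h, as did 23.9% of all genes tested. The median log2FC of the 10 was 1.88. Scaling by library totals alone moved the median of all genes tested to -0.18 and the split of DEGs from 485 lower of 951 to 690 lower of 1006, and left the same 6 keratins called. DESeq2 called these and KRT14. The 10 keratins together made up 0.620% ± 0.068 (SD, n = 3) of an untreated library at 72 h and 1.47% ± 0.41 (n = 3) of an EGFhigh library. Within them, the stress class had a share of 0.626% ± 0.201 and 3.74% ± 1.41, given here without a test.

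**Figure D2:**
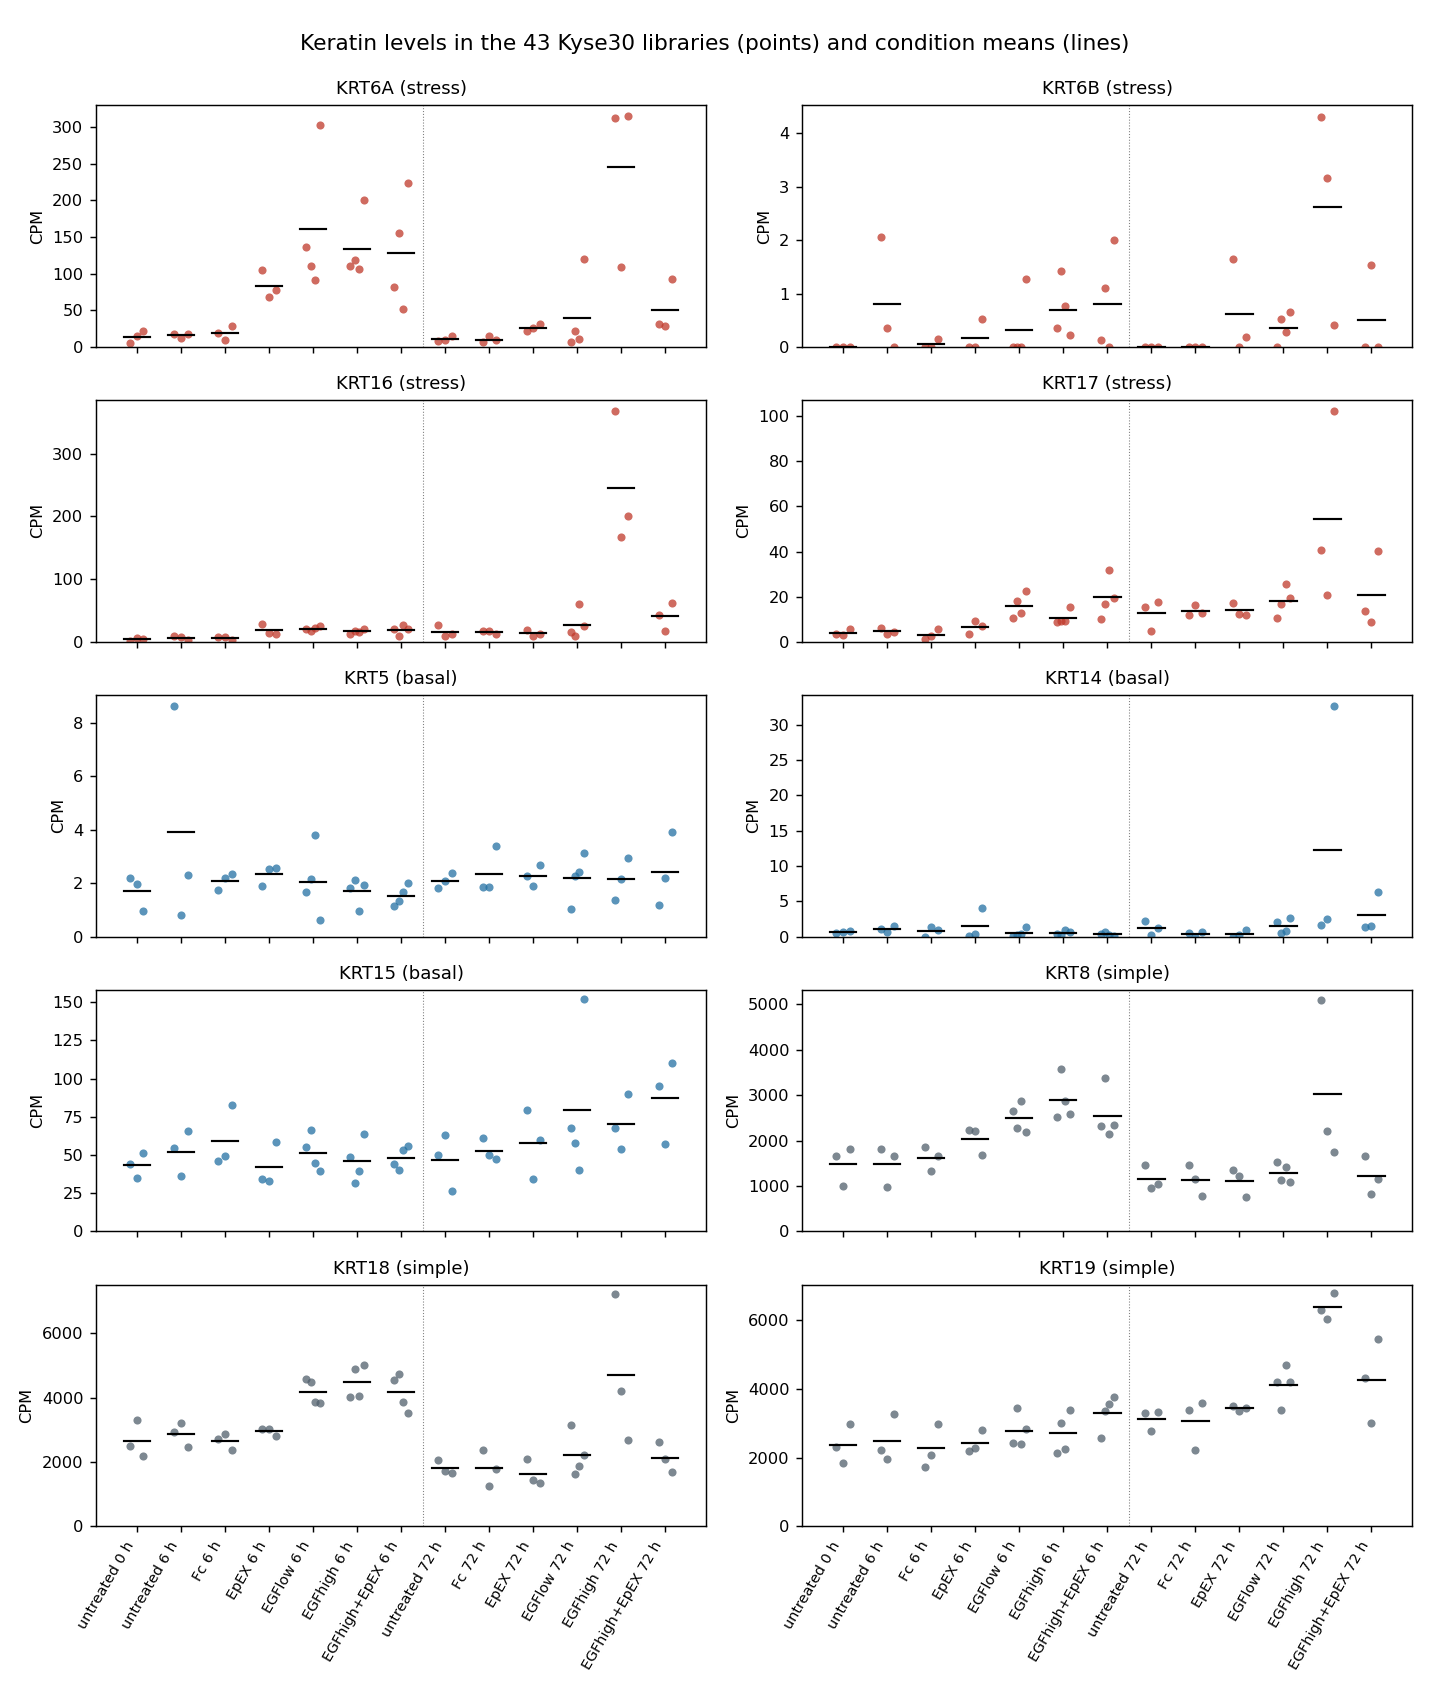
CPM of each keratin in the 43 Kyse30 libraries by condition (points, 3 or 4 per condition) with the condition mean (line). KRT6A is above all untreated and Fc libraries with every EGF or EpEX treatment at 6 h and with EGFhigh at 72 h, and KRT16 is highest in the 3 libraries of EGFhigh at 72 h.

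The EGFhigh response was also measured at 6 h. There, KRT6A had 110, 118, 106, and 200 CPM beside 18.2, 11.5, and 18.1 CPM in untreated libraries. No treated library came near the untreated ones, and the log2FC was 3.11 ± 0.66 (adjusted p = 0.0063). KRT8 also rose, with 2514, 3570, 2881, and 2592 CPM beside 1807, 974, and 1655 CPM (log2FC 0.99 ± 0.27, adjusted p = 0.035), but 5 of 7 fits that left out a library lost it, with log2FC 0.81 to 1.12. These 2 of 10 keratins compare with 2.55% of all genes tested that were called and 1.34% called higher. Without the filter on low counts 4 were called, and with a pooled control of untreated and Fc libraries 5.

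KRT16 had 13, 17.1, 15.7, and 19.6 CPM at 6 h of EGFhigh and 8.46, 7.19, and 2.04 CPM untreated (log2FC 1.53 ± 0.52, adjusted p = 0.11). KRT17 (log2FC 1.23, adjusted p = 0.24) and KRT18 (0.67, 0.15) were likewise without overlap and without a call, so that 5 of 10 keratins did not overlap, beside 15.1% of all genes. The difference between the EGFhigh responses at 72 h and at 6 h was a log2FC of 2.51 ± 0.72 for KRT16 (adjusted p = 0.076) and 1.55 ± 0.89 for KRT6A (0.45). None of the 10 keratins was a DEG of this interaction, 5 were at an unadjusted p under 0.05, DESeq2 called KRT16 alone, the fit without the filter on low counts 3, and 1.01% of all genes tested were called.

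EGFlow raised KRT6A at 6 h in Kyse30. KRT6A had 136, 111, 91.6, and 302 CPM, all above the untreated range (log2FC 3.38 ± 0.67, adjusted p = 0.0055). It was the only 1 of 10 keratins called, beside 1.5% of genes tested (0.814% higher), and without untreated library 4 its log2FC was 3.53 and its adjusted p 0.052. DESeq2 called 3 keratins, the fit without the filter on low counts 4, and a fit of the 2 groups alone or a pooled control 5. KRT16 stood just outside the threshold with a log2FC of 1.90 (adjusted p = 0.0504), and 5 of the 10 (KRT6A, KRT16, KRT17, KRT8, KRT18) did not overlap between groups, as 13.7% of all genes. EGFlow and EGFhigh were set against the same untreated libraries, so both sets of values share that error. Set against each other at 6 h, the doses gave a log2FC of -0.28 ± 0.53 for KRT6A, and 0 of 10 keratins and 0% of all genes were called (0 keratins at an unadjusted p under 0.05, and 0 by DESeq2).

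At 72 h, the doses differed in Kyse30. After EGFlow, KRT6A had 6.59, 21.3, 10.8, and 120 CPM, so that 1 library was high and another lay below all untreated values. Against untreated cells, 0 of 10 keratins and 0% of genes were called, with 2 keratins (KRT6A, log2FC 1.98, and KRT15, 0.86) at an unadjusted p under 0.05, 0 called by DESeq2, and 1 without the filter on low counts. KRT19 alone did not overlap, beside 4.43% of all genes. Directly between doses, EGFhigh exceeded EGFlow in 5 of 10 keratins beside 3.73% of genes tested (2.03% higher), and 3 of 10 (KRT16, KRT8, KRT19) did not overlap, beside 12.7% of all genes. KRT16, with 14.9, 9.40, 60.5, and 24.9 CPM after EGFlow and no overlap with EGFhigh, had a log2FC of 3.27 ± 0.48 (adjusted p = 2.5e-05), and this call held in all 7 fits that left out a library. KRT6A (log2FC 2.68, adjusted p = 0.0042) and KRT17 (1.68, 0.037) overlapped between the doses. KRT6A was called in all 7 fits that left out a library, with log2FC 2.35 to 3.05 in 6 of them and 4.37 without EGFlow library 4, the high one.

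The KRT8 and KRT18 pair was also higher under EGFhigh than EGFlow at 72 h, with log2FC 1.33 ± 0.26 (adjusted p = 0.0012) and 1.18 ± 0.24 (0.0017). Both calls were lost without EGFhigh library 1, where the log2FC was 0.70 (adjusted p = 0.13) and 0.72 (0.11). KRT17 was lost in 4 of the 7 fits that left out a library, with log2FC down to 0.89 without EGFhigh library 4. In a fit of the 2 groups alone, KRT16 was the 1 keratin still called.

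**Figure D3:**
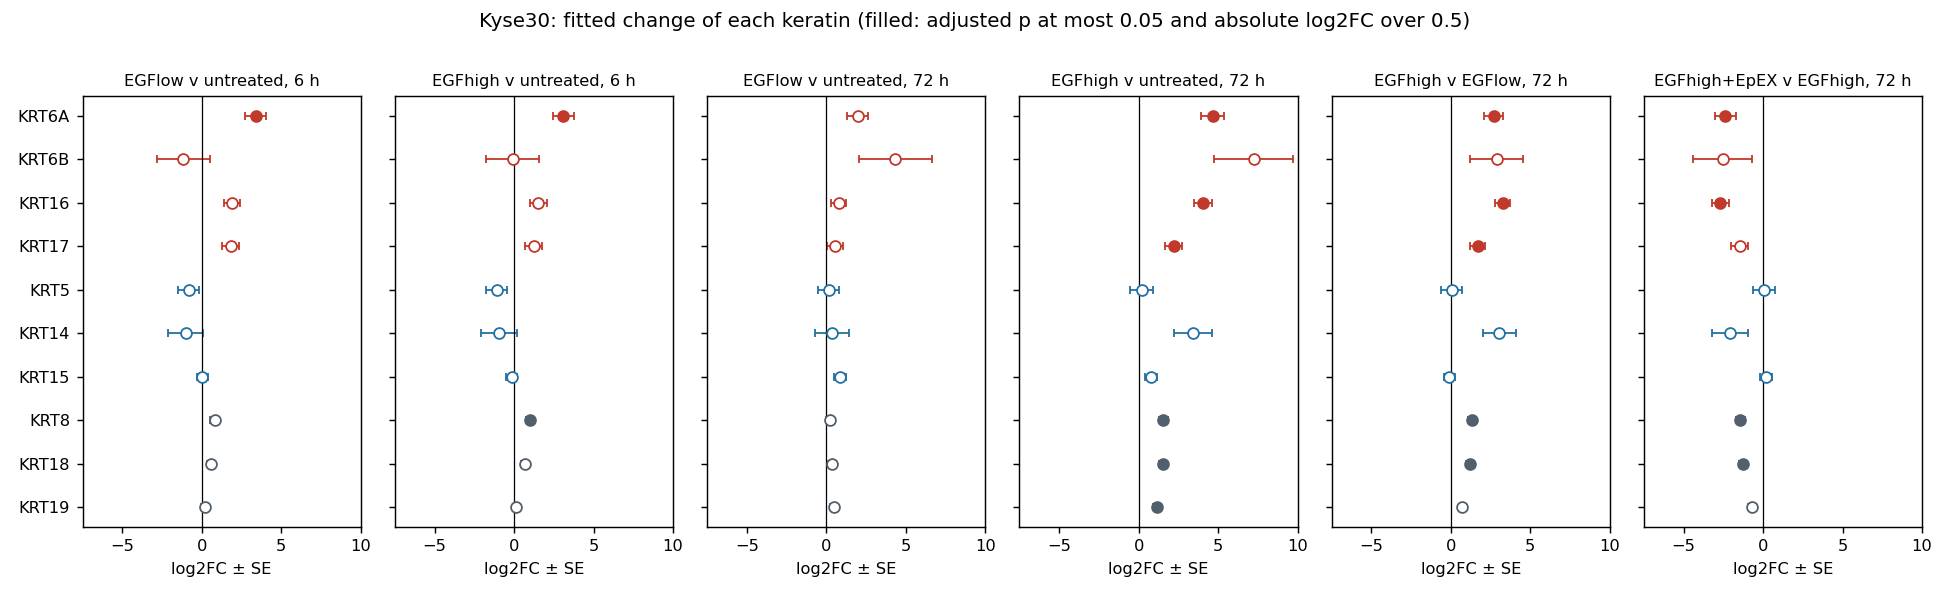
Fitted log2FC with SE of each keratin in 6 Kyse30 comparisons, with filled symbols for genes called as DEGs. Stress and simple genes lie right of 0 for EGFhigh at 72 h and left of 0 for EGFhigh+EpEX against EGFhigh, and the KRT6B point for EGFhigh at 72 h is set against untreated libraries without a count.

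Adding EpEX to EGFhigh lowered 4 of 10 keratins at 72 h. The libraries compared were numbered 1, 2, and 3 for EGFhigh+EpEX and 1, 3, and 4 for EGFhigh, so the replicate numbers were not balanced. KRT16 had 43.3, 17.1, and 62.5 CPM under EGFhigh+EpEX, all below the EGFhigh range of 167 to 367 CPM (log2FC -2.70 ± 0.52, adjusted p = 0.0012). KRT6A had 30.5, 28.7, and 92.0 CPM, whose highest value approached the lowest under EGFhigh alone (108 CPM), with a log2FC of -2.39 ± 0.65 (adjusted p = 0.027). KRT8 fell by 1.45 on the log2 scale (adjusted p = 0.0016) and KRT18 fell by 1.28 (0.0025). The 4 keratins compare with 1.72% of genes tested that were lower and 3.58% called in both directions. With KRT19, 5 of 10 did not overlap between the treatments, as in 21.1% of all genes.

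These 4 calls differed in how far they rested on single libraries. KRT16 was called in all 6 fits that left out a library, whereas KRT6A was lost in 4 of 6, with log2FC -2.10 to -2.19 and adjusted p up to 0.19. In a fit of the 2 groups alone, 2 keratins were called. KRT8 and KRT18 were lost without EGFhigh library 1 (log2FC -0.82 and -0.80, adjusted p = 0.10 and 0.096). KRT17 (log2FC -1.48, adjusted p = 0.11) and KRT19 (-0.70, 0.12) did not pass, and the 3 basal keratins were at -2.08 (KRT14), 0.19 (KRT15), and 0.06 (KRT5). The stress share of the 10 keratins was 1.40% ± 0.75 under EGFhigh+EpEX and the share of a library taken by the 10 was 0.781% ± 0.152.

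Against its own control Fc, EGFhigh+EpEX called 0 of 10 keratins at 72 h, and 0% of genes. KRT6A had 6.13, 14.8, and 8.89 CPM under Fc (log2FC 2.47 ± 0.70, adjusted p = 1), and KRT6A and KRT14 did not overlap between groups, beside 8.42% of all genes. KRT6A, KRT16, KRT14, and KRT15 were at an unadjusted p under 0.05, DESeq2 called 0, and 2 were called without the filter on low counts. At 6 h, EGFhigh+EpEX against Fc called the 3 stress genes KRT6A (log2FC 2.81 ± 0.65, adjusted p = 0.0080), KRT16 (1.85 ± 0.53, 0.034), and KRT17 (2.69 ± 0.57, 0.0035), beside 4.52% of genes tested (3.01% higher). KRT17 had 10.1, 16.9, 32.0, and 19.5 CPM there and 1.21, 2.42, and 5.73 CPM under Fc, without overlap, as for 5 of 10 keratins and 15% of all genes. Without Fc library 1, all 3 were lost, with log2FC 2.76 for KRT6A (adjusted p = 0.057), 1.93 for KRT16 (0.11), and 2.27 for KRT17 (0.054). KRT16 was lost in 4 of the 7 fits that left out a library, also without Fc library 4 (log2FC 1.58, adjusted p = 0.17) and EGFhigh+EpEX libraries 1 (1.85, 0.053) and 3 (1.66, 0.080), and KRT6A and KRT17 in 1 each. The count of 3 was lower than that of DESeq2 (5), of a pooled control (5), and of the fit without the filter on low counts (6). For KRT16, 8 of 9 recomputations under other settings kept the call, with log2FC 1.74 to 2.01 and adjusted p up to 0.053. Between EGFhigh+EpEX and EGFhigh at 6 h, 0 of 10 keratins were called, with 0% of genes called, 0 keratins at an unadjusted p under 0.05, and 0 by DESeq2.

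EpEX alone gave KRT6A 105, 68.0, and 77.6 CPM at 6 h beside 19.4, 9.46, and 28.5 CPM under Fc. All EpEX libraries were above all Fc libraries, yet the log2FC of 2.11 ± 0.66 did not pass (adjusted p = 0.23). KRT16 was similar with 28.7, 14.2, and 11.8 CPM beside 6.93, 7.70, and 3.08 CPM (log2FC 1.67 ± 0.56, adjusted p = 0.28). With 0 of 10 keratins called beside 0.0261% of genes, 2 (those without overlap, beside 12.9% of all genes) were at an unadjusted p under 0.05 and DESeq2 called 0. Other settings called some, 2 without the filter on low counts, 1 in a fit of the 2 groups alone, and 1 with untreated and Fc libraries pooled as the control. At 72 h, EpEX called 0 of 10 and 0% of genes, with KRT6A (21.0, 25.2, and 31.5 CPM) alone at an unadjusted p under 0.05 and alone without overlap (7.71% of all genes), 0 by DESeq2, and 1 without the filter on low counts.

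The controls were compared with each other in Kyse30. Fc against untreated cells called 0 of 10 keratins at 6 h and at 72 h, with 0% of genes, 0 keratins at an unadjusted p under 0.05, and 0 by DESeq2, and no keratin was without overlap (7.37% and 6.33% of all genes at the 2 times). The largest absolute log2FC among keratins other than KRT6B and KRT14 was 0.85 (KRT5 at 6 h). Untreated cells at 6 h against 0 h called 0 of 10 and 0% of genes, with KRT6B alone at an unadjusted p under 0.05 and 0 by DESeq2. From 6 to 72 h without treatment, 0 of 10 keratins were called beside 1.55% of genes, with KRT16, KRT17, KRT18, and KRT6B at an unadjusted p under 0.05, 0 by DESeq2, 2 without the filter on low counts, and 1 in a fit of the 2 groups alone. KRT16 went from 8.46, 7.19, and 2.04 CPM to 27.3, 8.49, and 12.7 CPM, with groups that did not overlap (log2FC 1.48 ± 0.54, adjusted p = 0.18), as did 2 of 10 keratins and 19.9% of all genes. Under Fc over the same time, 0 of 10 were called by edgeR beside 2.25% of genes, 3 were at an unadjusted p under 0.05, and DESeq2 called KRT17 (edgeR log2FC 2.03 ± 0.59, adjusted p = 0.052). Without the filter on low counts, 3 were called. KRT16 and KRT17 did not overlap between these times, beside 17.6% of all genes.

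In FaDu, KRT17, KRT8, and KRT18 rose with both doses of EGF at 6 h. KRT17 had 614 and 909 CPM untreated, 3075 and 3280 CPM with EGFlow, and 2908 and 3195 CPM with EGFhigh. Treated libraries were several times the untreated ones, with log2FC 2.15 ± 0.21 for EGFlow (adjusted p = 7.9e-06) and 2.09 ± 0.21 for EGFhigh (1.1e-05), both against the same untreated libraries. KRT8 had 352 and 294 CPM untreated, 711 and 585 CPM with EGFlow (log2FC 1.09, adjusted p = 0.0015), and 723 and 675 CPM with EGFhigh (2.31-fold, 0.00074). KRT18 had 717 and 694 CPM untreated, 1192 and 1260 CPM with EGFlow (log2FC 0.89, adjusted p = 0.0014), and 1290 and 1319 CPM with EGFhigh (0.98, 0.00068). These 3 of 10 keratins were called beside 3.45% of 16022 genes tested for EGFlow (2.55% higher) and 3.06% for EGFhigh (2.29% higher), and 5 of 10 did not overlap in each, beside 43.5% and 41.6% of all genes. The 3 stayed called in each of the 4 fits that left out a library, which set 1 library of an arm against the spread of other groups.

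KRT6A did not pass the test with EGF in FaDu, with 29.9 and 25.1 CPM untreated and 27.3 and 20.2 CPM with EGFhigh (log2FC -0.12 ± 0.42). KRT16 had 59.5 and 70.1 CPM untreated and 88.7 and 107 CPM with EGFhigh (log2FC 0.68 ± 0.22, adjusted p = 0.13). Tested in a single fit, the difference of the EGFhigh response at 6 h between Kyse30 and FaDu was a log2FC of 3.26 ± 0.95 for KRT6A (adjusted p = 0.38) and -0.80 ± 0.69 for KRT17. None of the 10 keratins was called beside 0.0611% of genes, 1 was at an unadjusted p under 0.05, DESeq2 called 0, and 1 was called without the filter on low counts. EGFhigh and EGFlow gave 0 of 10 calls against each other in FaDu and 0% of genes, as did Fc and untreated cells, in both cases with 0 keratins at an unadjusted p under 0.05 and 0 by DESeq2.

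EpEX raised 4 of 10 keratins in FaDu at 6 h beside 3.5% of genes called and 2.45% called higher, and 6 of 10 did not overlap, beside 41.1% of all genes. KRT17 had 600 and 887 CPM under Fc and 3833 and 3519 CPM under EpEX, the highest values of KRT17 in these libraries (log2FC 2.42 ± 0.21, adjusted p = 2.3e-06). KRT16 had 68.4 and 68.5 CPM under Fc and 134 and 123 CPM under EpEX (log2FC 1.02 ± 0.22, adjusted p = 0.014). KRT8 (log2FC 0.79, adjusted p = 0.018) and KRT18 (0.80, 0.0033) rose as well. KRT17 and KRT18 were called in all 4 fits that left out a library, while KRT16 and KRT8 were each lost in 3, with log2FC 0.94 to 1.04 and 0.63 to 0.83. In a fit of the 2 groups alone, 2 keratins were called (KRT16 and KRT17), and the calls of KRT8 and KRT18 were lost. The stress class was 33.6% ± 2.2 (SD, n = 2) of the counts on the 10 keratins under Fc and 64.4% ± 0.98 under EpEX. It was 35.4% ± 5.4 in untreated cells and 55.6% ± 1.3 under EGFhigh. Most of this class under EpEX was KRT17, as the 4 stress keratins together had 3996 and 3675 CPM. The other 2 stress keratins, KRT6A and KRT6B, were not called with EpEX at 6 h. The median log2FC with EpEX was 0.30 for the 4 stress genes and -0.20 for all 10 keratins. It was -0.82 for the 3 basal genes, none of which was called.

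**Figure D4:**
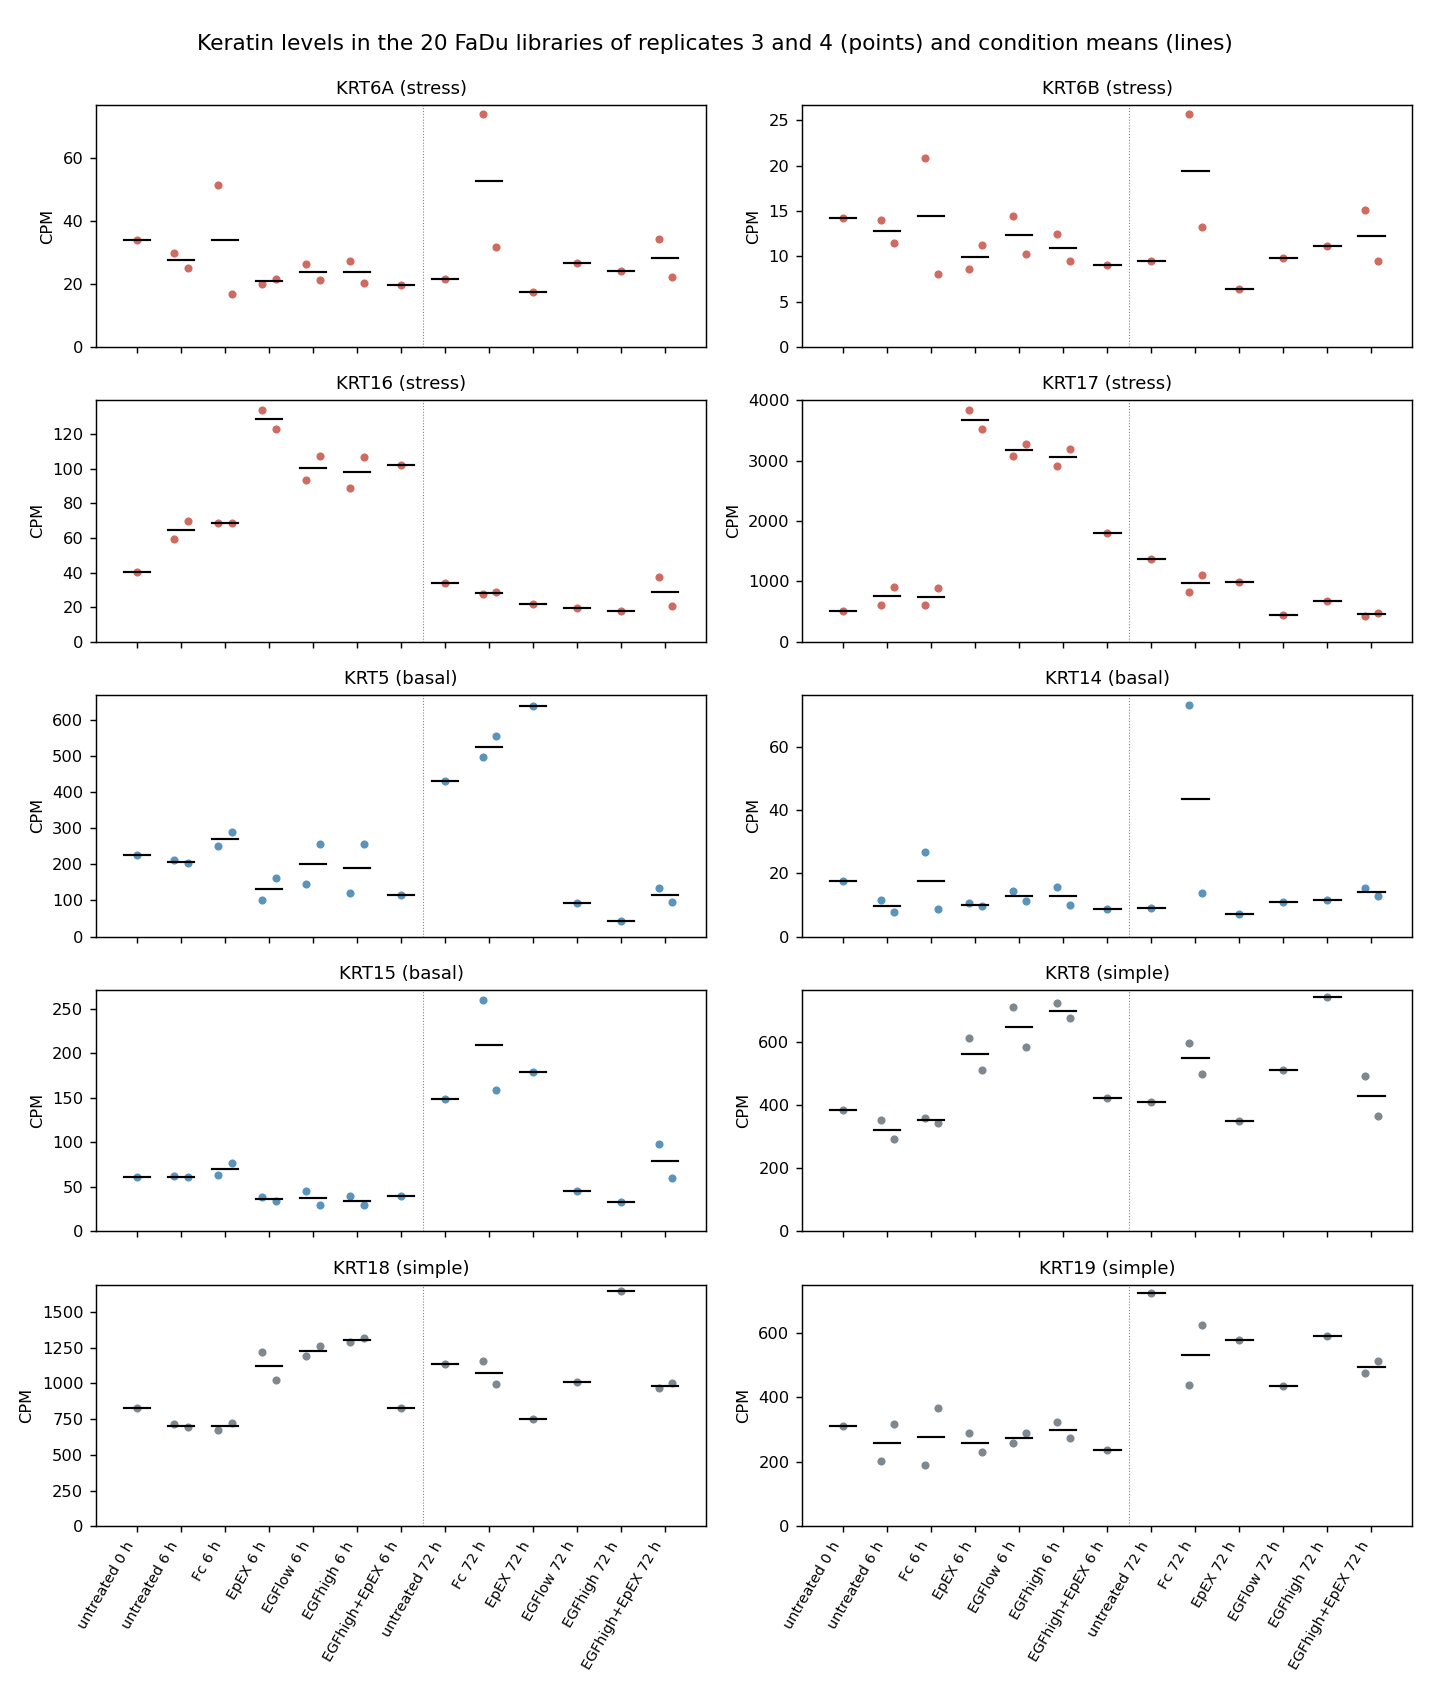
CPM of each keratin in the 20 FaDu libraries of replicates 3 and 4 by condition (points, 1 or 2 per condition) with the condition mean (line). KRT17, KRT16, KRT8, and KRT18 are higher with EpEX, EGFlow, and EGFhigh at 6 h than in controls, and KRT5 and KRT15 are higher at 72 h without EGF than with it.

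With all 41 FaDu libraries in the fit, replicates 1 and 2 included, 0 of 10 keratins were called in each of the EGFlow, EGFhigh, and EpEX contrasts at 6 h, as were 0% of the 18533 genes tested. With EpEX, the direction turned for KRT8 (log2FC -0.44) and KRT18 (-0.37). Over the 9 other settings, this fit included, the log2FC of KRT17 was lowest at 2.06 (EGFlow), 1.75 (EGFhigh), and 1.55 (EpEX). That of KRT16 with EpEX was lowest at 0.91. KRT8 and KRT18 were lowest at 0.43 and 0.28 with EGFlow and at 0.46 and 0.24 with EGFhigh. The comparison of lines kept 3 calls of 8 (KRT16, KRT17, KRT5), beside 4.88% of genes in that fit.

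At 72 h in FaDu, only EGFhigh+EpEX and Fc had 2 libraries each. KRT5 had 496 and 556 CPM under Fc and 136 and 95.6 CPM under EGFhigh+EpEX (log2FC -2.14 ± 0.31, adjusted p = 0.0026). KRT15 had 260 and 159 CPM under Fc and 98.3 and 59.6 CPM (log2FC -1.35 ± 0.27, adjusted p = 0.019), and KRT17 had 831 and 1105 CPM under Fc and 433 and 470 CPM (-1.05 ± 0.21, 0.018). The groups did not overlap for these 3 basal and stress genes, which compare with 0.818% of genes called and 0.193% called lower (4 of 10 keratins and 41.3% of genes did not overlap). Leaving out a library left between 0 and 2 of the 3 called, with 0 left without EGFhigh+EpEX library 4, where KRT5 had a log2FC of -1.89 (adjusted p = 0.084). With all 41 FaDu libraries in the fit, 0 keratins and 0% of genes were called. KRT14 (73.3 and 13.7 CPM under Fc, log2FC -1.55, adjusted p = 0.41) and KRT6A (74.0 and 31.7 CPM, -0.85, 0.75) were high in Fc library 3 and did not pass.

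The conditions with a single FaDu library at 72 h are given as values without a test. KRT5 had 430 CPM untreated and 639 CPM with EpEX, and 93.0 CPM with EGFlow and 42.3 CPM with EGFhigh. KRT15 had 149 CPM untreated and 179 CPM with EpEX, and 45.7 and 32.8 CPM with the 2 EGF doses. KRT17 had 1365 CPM untreated, 987 CPM with EpEX, 445 CPM with EGFlow, and 677 CPM with EGFhigh. The basal share of the 10 keratins was accordingly 13.7% and 23.3% without EGF and 5.74% and 2.29% with it. KRT8 was highest with EGFhigh (744 CPM beside 412 CPM untreated), as was KRT18 (1644 beside 1135 CPM).

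Between 6 and 72 h under Fc, KRT15 and KRT18 rose and KRT16 fell in FaDu. KRT15 went from 63.2 and 76.7 CPM to 260 and 159 CPM (log2FC 1.52 ± 0.27, adjusted p = 0.0028) and KRT16 from 68.4 and 68.5 CPM to 27.6 and 28.96 CPM (-1.33 ± 0.23, 0.0025), both without overlap. KRT18 rose with a log2FC of 0.57 (adjusted p = 0.041), while KRT5, with 250 and 288 CPM at 6 h and 496 and 556 CPM at 72 h, did not pass (0.92 ± 0.30, 0.13). The 3 calls compare with 2.88% of genes tested, and 6 of 10 keratins did not overlap, as 48.4% of all genes. KRT18 was lost in all 4 fits that left out a library (log2FC 0.47 to 0.66) and KRT15 in 2, without Fc library 3 of 6 h (1.40) or of 72 h (1.15). With all 41 FaDu libraries, 0 keratins and 0% of genes were called and KRT18 turned to a log2FC of -0.73, whereas DESeq2 called 6 keratins and edgeR without the filter on low counts called 7.

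Scaling by library totals alone, in place of the trimmed mean of M-values, shifted the split of DEGs between higher and lower genes. The median log2FC of all genes tested lay between -0.18 and 0.15 over the comparisons under that scaling, and between -0.048 and 0.033 with the trimmed mean. In Kyse30, DEGs with EGFlow at 6 h went from 125 higher of 230 to 93 of 210, with EGFhigh+EpEX against Fc at 6 h from 462 of 694 to 339 of 679, with EGFhigh against EGFlow at 72 h from 311 of 573 to 221 of 535, and with EGFhigh+EpEX against EGFhigh at 72 h from 286 of 550 to 370 of 551. The interaction of EGFhigh with time went from 76 of 155 to 51 of 146. In FaDu at 6 h, DEGs went from 409 of 553 to 322 of 527 with EGFlow, from 367 of 491 to 290 of 450 with EGFhigh, and from 393 of 560 to 292 of 545 with EpEX. None of the 49 keratin changes recomputed under that scaling reversed, and 1 call was lost, KRT8 with EGFhigh at 6 h in Kyse30 (log2FC 0.97, adjusted p = 0.052).

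**Figure D5:**
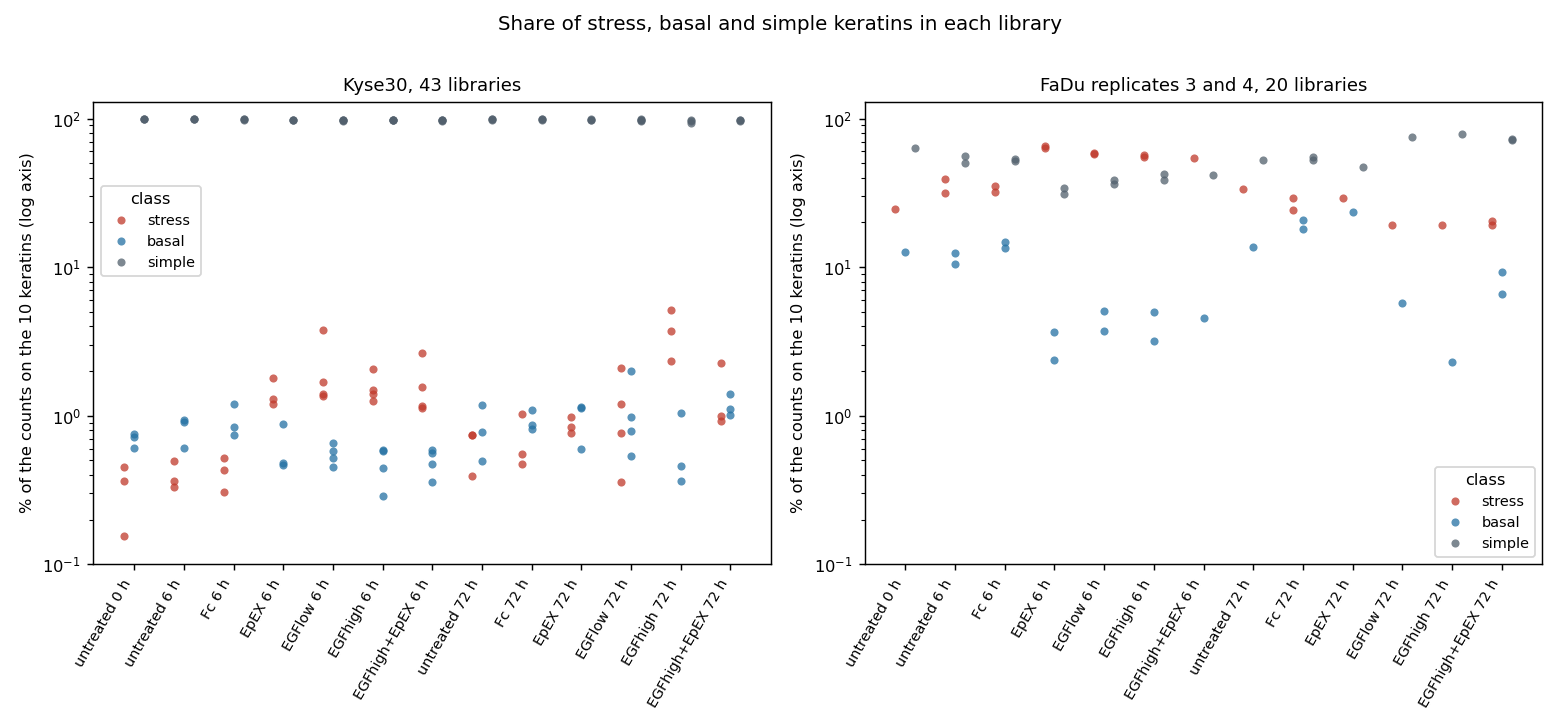
Share of the counts on the 10 keratins held by the stress, basal, and simple class in each library, in percent on a logarithmic axis, for Kyse30 (left) and FaDu replicates 3 and 4 (right). In Kyse30 the simple class stays above 93% and the stress class peaks at 5.16% under EGFhigh at 72 h, and in FaDu the stress class peaks at 65.1% under EpEX at 6 h.

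Genes that work with keratins were counted from lists in the same Kyse30 contrast, EGFhigh against untreated at 72 h. Of the other 45 protein-coding keratins, 10 were tested and 0 were called (median log2FC -0.35). They include KRT13 and KRT4, the pair of the upper layers of esophageal and oral epithelium, at log2FC 0.19 and -2.10 (adjusted p = 0.93 and 0.17). The simple keratin KRT7 (-0.77), KRT80 (-0.97), KRT86 (-1.37), KRT23 (-1.73), and the suprabasal KRT10 (0.07) had adjusted p-values of 0.078 or more. KRT1, the type II partner of KRT10 in epidermis, had a mean of 13.8 CPM in FaDu and 0.043 CPM in Kyse30 and was not tested there.

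Of 5 tested genes induced with stress keratins in wounded epidermis, 2 rose: SPRR1B, a cornified envelope precursor, from 9.89 ± 1.34 to 495 ± 96.1 CPM (SD, n = 3; log2FC 5.81, adjusted p = 1.6e-10), and S100A9, a subunit of calprotectin, from 20.9 ± 11.5 to 93.1 ± 56.5 CPM (2.34, 0.011). Of 15 tested linkers between keratins and cell junctions, 2 rose, EVPL (envoplakin; log2FC 0.83, adjusted p = 0.044) and JUP (plakoglobin; 0.87, 0.013). Of 20 transcription factors that act on keratin genes, 1 fell, the AP-1 subunit FOS, from 497 ± 150 to 72.1 ± 26.2 CPM (log2FC -2.66, adjusted p = 0.0072). Of 6 other intermediate filament genes tested, LMNB1, which encodes lamin B1 of the nuclear lamina, fell by 1.90 on the log2 scale (adjusted p = 0.00054). These lists and their counts stand beside the 6.2% of all genes called.

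In the same lists, transcription factors of epithelial cells were called at 6 h, and those named here were chosen after their values were seen. In FaDu with EGFhigh, 2 of 19 tested keratin gene regulators rose, KLF5 (log2FC 1.85, adjusted p = 3.8e-06) and the AP-1 subunit FOSL1 (2.29, 0.0016), and 2 fell, ELF3 (-1.81, 0.00054) and GRHL2 (-0.85, 0.020), beside 3.06% of all genes. With EpEX in FaDu these 4 were called in the same directions, along with NFE2L2 (0.88, 0.0092), the regulator of the oxidative stress response, beside 3.5% of all genes. With EGFlow in FaDu, 2 of the 19 rose (KLF5, FOSL1) and 3 fell (ELF3, GRHL2, FOS), beside 3.45% of all genes. In Kyse30 with EGFhigh at 6 h, 2 of 20 fell, GRHL2 (-1.06, 0.012) and SOX2 (-2.17, 0.038), beside 2.55% of all genes called and 1.21% called lower. In Kyse30 at 6 h, 0 of 20 were called with EGFlow (1.5% of all genes) and 0 with EpEX (0.0261%), and with EGFhigh+EpEX against Fc 1 rose (KLF5, log2FC 0.64) and 1 fell (GRHL2, -1.03), beside 4.52% of all genes. Of the other keratins, 10 were tested in Kyse30 and 11 in FaDu at 6 h, and none was called with EGFhigh in either line.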

How the data were processed

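The authors deposited, for each library, raw counts of reads per gene from 3′ RNA-seq (QuantSeq). The submitters' processing notes name STAR, HTSeq, and GRCh38 without versions, and the strand setting is not given in the sources used here. Reads aligned to several places were not counted (24.6% to 43.6% of a Kyse30 library, 41.0% to 51.3% of a FaDu library). The 10 keratins and the gene lists were chosen with earlier results of these data known. Symbols came from GENCODE 29. FaDu libraries with titles ending in 3 or 4 were used, and those ending in 1 or 2 entered as an alternative. Genes with low counts were removed (filterByExpr, minimum count 10, minimum total 15). The quasi-likelihood fit of the counts used R 4.3.3, edgeR 4.0.16 and the trimmed mean of M-values, with 1 coefficient per condition over all libraries of a line, 63 libraries for the comparison of lines, and Benjamini-Hochberg adjustment over all genes tested. The SE is the log2FC divided by the square root of F. DESeq2 1.42.0 was an alternative. Named were the 10 keratins, keratins with a mean of at least 5 CPM, up to 6 called genes of each list in EGFhigh against untreated Kyse30 at 72 h, and for likeness the 5 genes with the highest r. The fit was tested on simulated data.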

Additional observations from a re-analysis of the deposited data

Results flagged for a closer look

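A library that stands apart from the others of its condition was looked for in the 40 Kyse30 sets of 4 libraries of 1 keratin, by the gap of the highest or lowest library relative to the whole range. This gap was wide in 6 sets. The cutoff used would flag about 1 in 20 independent sets of normally distributed values. These sets share libraries and some hold few counts, so the number of wide gaps was not compared with chance. KRT6A stood high in library 4 of EGFhigh at 6 h (199.65 CPM, next 118 CPM) and in library 4 of EGFlow at 72 h (119.7 CPM, next 21.3 CPM). KRT17 was high in library 4 of EGFhigh at 6 h (15.3 CPM, next 9.36 CPM). Library 4 of EGFlow at 6 h was highest for KRT6B (1.27 CPM, the others at 0) and for KRT14 (1.43 CPM, next 0.329 CPM). KRT8 was high in library 2 of EGFhigh+EpEX at 6 h (3389.5 CPM, next 2351 CPM).

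The 21 FaDu libraries numbered 1 and 2 were outside the comparisons and held levels above every untreated or Fc library of FaDu 3 and 4. In EpEX library 1 at 72 h, KRT6A had 3641 CPM (highest control 74.0 CPM, exceeded by 5 of the 21), KRT6B 3211 CPM (25.7 CPM, 2), KRT16 223 CPM (70.1 CPM, 5), KRT17 4347 CPM (1365 CPM, 2), KRT14 2354 CPM (73.3 CPM, 3), and KRT15 917 CPM (260 CPM, 1). KRT5 reached 3729 CPM in Fc library 2 at 6 h (556 CPM, 5). In Fc library 1 at 6 h, KRT8 had 3994 CPM (599 CPM, 12) and KRT18 had 4151 CPM (1157 CPM, 6). KRT19 reached 4307 CPM in EGFhigh+EpEX library 2 at 6 h (722 CPM, 13).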

How the results depend on the processing

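Counts of called keratins stayed within 1.5 times the reported count in 184 of 228 recomputations under other settings and in 133 of 152 that left out a library. In most comparisons the reported count was 0, and a 0 that stayed 0 is included as unchanged. These shares therefore overstate how steady the counts above 0 were. Class shares were recomputed with pseudogene counts added, and all 60 moved by less than the spread between libraries. Without the filter on low counts, 4 keratins were called with EGFlow and 4 with EGFhigh at 6 h in Kyse30, 6 with EGFhigh+EpEX and 2 with EpEX at 6 h, 2 with EGFhigh+EpEX, 1 with EpEX and 1 with EGFlow at 72 h, 2 between untreated 72 and 6 h, 3 between Fc 72 and 6 h, 3 for EGFhigh over time, 1 for EGFhigh between lines, and 7 between Fc 72 and 6 h in FaDu. DESeq2 called 3 keratins with EGFlow and 5 with EGFhigh+EpEX at 6 h, 1 between Fc 72 and 6 h, 1 for EGFhigh over time, and 6 between Fc 72 and 6 h in FaDu. Fitting the compared groups alone gave 5 with EGFlow and 1 with EpEX at 6 h, 1 between EGFhigh and EGFlow and 2 between EGFhigh+EpEX and EGFhigh at 72 h, 1 between untreated 72 and 6 h, and 2 with EpEX at 6 h in FaDu. With untreated and Fc cells pooled as the control, the counts at 6 h were 5 (EGFlow), 5 (EGFhigh), 1 (EpEX), and 5 (EGFhigh+EpEX). Between Fc 72 and 6 h in Kyse30, 1 was called with size factors, 1 with library totals, and 1 with a mean of at least 5 CPM. Library totals gave 1 with EGFhigh at 6 h, and EGFlow at 6 h had 2 with the mean of at least 5 CPM and 2 with pseudogene counts added. With all FaDu replicates, 0 keratins were called with EGFlow, EGFhigh, and EpEX at 6 h, 0 with EGFhigh+EpEX at 72 h, 0 between Fc 72 and 6 h, and 3 between lines. These also reversed KRT8 (log2FC -0.44) and KRT18 (-0.37) with EpEX at 6 h and KRT18 between Fc 72 and 6 h (-0.73), and the KRT5 log2FC with EGFhigh at 72 h in Kyse30 ran from -0.083 (without EGFhigh library 4) to 0.43 with a library left out. The causes were not tested.

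Leaving out 1 library gave 0 to 2 keratins with EGFlow at 6 h, 1 to 2 with EGFhigh at 6 h, 0 to 4 with EGFhigh+EpEX at 6 h, 5 to 6 with EGFhigh at 72 h, 3 to 5 between EGFhigh and EGFlow at 72 h, 1 to 5 between EGFhigh+EpEX and EGFhigh at 72 h, 0 to 1 between Fc 72 and 6 h, and 0 to 1 for EGFhigh over time in Kyse30. In FaDu it gave 2 to 4 with EpEX at 6 h, 0 to 2 with EGFhigh+EpEX at 72 h, and 1 to 3 between Fc 72 and 6 h, with the lone library of an arm assumed to vary like other groups. It was not run for the comparisons of lines.

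The replicate numbers were not taken to pair the samples, since the labels give them no meaning and not every pair of same-numbered libraries had deviations that correlated above 0.1 (64 of 217 pairs in Kyse30, mean 0.063). However, 38 of 43 Kyse30 libraries and 14 of 14 FaDu libraries correlated best with their own number, which is a hint of pairing from the data, not from the design. The 2 FaDu libraries of a condition deviate from its mean in exactly opposite ways, so they give 1 outcome and not 2. With the replicate number as a block, 3 keratins were called with EGFlow, 1 with EpEX, and 6 with EGFhigh+EpEX at 6 h and 2 between Fc 72 and 6 h in Kyse30, and 6 between Fc 72 and 6 h in FaDu. The block kept 6 calls with EGFhigh at 72 h.

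Depth limits KRT6B, KRT14, and KRT5 in Kyse30, where few counts carry each value. FaDu conditions rest on 1 or 2 libraries.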

Other observations

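Genes whose levels followed a keratin most closely over the 43 Kyse30 libraries are given as a description, since all values of a library share its depth and condition. Pearson's r of log2 CPM was computed over 10251 genes with a mean of at least 5 CPM. For KRT6A, the closest were AKAP12 (0.84), CD59 (0.84), HAS3 (0.82), PYGB (0.81), and AREG, which encodes the EGFR ligand amphiregulin (0.81). KRT8 was followed by its partner KRT18 (0.85), then FAM129B (0.85), MYO1E (0.85), ARHGDIA (0.84), and the actin crosslinker ACTN1 (0.83). For KRT5, which was near the floor of counting, the highest values were lower, with PIR (0.48), PHF13 (0.46), DDB2 (0.45), NMNAT2 (0.44), and TAZ (ENSG00000102125, 0.44).

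Other keratins of the 2 lines were also set side by side by level, and KRT80 was alike in both. Mean CPM in Kyse30 and in FaDu replicates 3 and 4 was 396 and 31.1 for KRT13, 99.4 and 16.0 for KRT4, 37.5 and 0.210 for KRT23, 67.5 and 153 for KRT7, 214 and 216 for KRT80, 105 and 151 for KRT10, and 12.5 and 8.93 for KRT86, given without a test.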
